A study of Mus musculus with 10 samples.

Results

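Nicotinic acid, nicotinamide and tryptophan are the starting points from which cells make NAD, the coenzyme that carries electrons in metabolism and is used up by sirtuins and poly-ADP-ribose polymerases. The 10 genes described here encode enzymes of these routes. They were chosen by symbol, as 1 protein-coding row each, from the 56748 genes of the table, with earlier results of these data known. Of the 10, 8 had a mean of at least 0.5 FPKM (fragments scaled for gene length and library, a level that can be compared between genes) over all libraries and were tested among 13607 genes; Qprt and Nnmt were below it.

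The libraries were made from mouse colon organoids, epithelial cultures grown from crypt cells. They fall into 5 WY-14643 libraries (replicates 6 to 10; 100 µM for 2 days, beginning 3 days after passaging) and 5 vehicle libraries (replicates 1 to 5; the solvent for the same 2 days). WY-14643 activates PPARα, the nuclear receptor that senses fatty acids. The labels give no mouse strain, age, genotype or organoid line, and do not say whether replicates were separate cultures; the spread behind each p may therefore be technical. In no group was PPARα removed. The series title concerns nicotinic acid made by the microbiome, but neither group is labelled as having received nicotinic acid.

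In the Preiss-Handler route, Naprt joins nicotinic acid to a phosphoribosyl group, an Nmnat enzyme adds the adenylyl group, and Nadsyn1 turns the acid into the amide, which is NAD. In the salvage route, Nampt turns nicotinamide, released wherever NAD is consumed, into nicotinamide mononucleotide, Nmrk1 makes the same mononucleotide from nicotinamide riboside, and an Nmnat enzyme completes NAD. The de novo route runs from tryptophan to quinolinate, which Qprt brings into the Preiss-Handler route. Nadk in the cytosol and Nadk2 in mitochondria phosphorylate NAD to NADP, and Nnmt methylates nicotinamide and so takes it out of salvage. In rat liver, PPARα agonists are known to act on the tryptophan branch, where Acmsd diverts an intermediate away from quinolinate.

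The salvage gene Nampt and the kinase gene Nadk were abundant in these organoids, the de novo gene Qprt and the methyltransferase gene Nnmt were at or next to 0, and no member passed the test between WY-14643 and vehicle. The libraries were epithelial, with Epcam, Cdh1, Vil1, Cldn7 and 3 keratins summing to 3748 to 7371 FPKM in WY-14643 and 4047 to 6943 FPKM in vehicle libraries. The 6 fibroblast markers summed to 0.0351 to 0.214 FPKM in WY-14643 and 0.0356 to 0.185 FPKM in vehicle libraries, with Dcn and Lum at 0. The 3 endothelial markers reached at most 0.0237 FPKM in WY-14643 and 0.0409 FPKM in vehicle libraries. Of the 5 immune markers Cd3e, Adgre1 and Lyz2 were at 0 in all 10 libraries, and the sum was 0.145 to 1.32 FPKM in WY-14643 and 0.121 to 0.89 FPKM in vehicle libraries, most of it Csf1r. Between 15618244 and 29271304 gene-assigned reads stood behind a library. Libraries deviated from their group means in numbered pairs, WY-14643 replicate 6 with vehicle replicate 1, 7 with 2, 8 with 3, 9 with 4 and 10 with 5 (correlations across genes of 0.423 to 0.782, and at most 0.0602 between unmatched libraries of different groups). The labels state no such pairing; it is used below to describe the spread and in a second fit with pairs as a block. Genes are not independent replicates, so these correlations carry no p.

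The upstream sequences of Nampt and Qprt are shown as those of an abundant salvage gene and of a de novo gene that was next to 0; Nadk, the most abundant member, had more than 1 window, and these differed in CpG content. Both run 5′ to 3′ over the 250 bases before the gene's start in RefSeq on build GRCm38.p6 (the gene table uses mm39), on chr12:32820085-32820334, plus strand, for Nampt and chr7:127122030-127122279, minus strand, for Qprt. Capitals mark CpG dinucleotides.
Nampt: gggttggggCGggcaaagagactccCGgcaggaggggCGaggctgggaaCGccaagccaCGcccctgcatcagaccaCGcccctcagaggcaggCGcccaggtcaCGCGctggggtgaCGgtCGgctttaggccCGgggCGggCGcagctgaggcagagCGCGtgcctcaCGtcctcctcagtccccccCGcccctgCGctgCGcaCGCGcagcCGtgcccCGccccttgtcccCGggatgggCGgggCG
Qprt: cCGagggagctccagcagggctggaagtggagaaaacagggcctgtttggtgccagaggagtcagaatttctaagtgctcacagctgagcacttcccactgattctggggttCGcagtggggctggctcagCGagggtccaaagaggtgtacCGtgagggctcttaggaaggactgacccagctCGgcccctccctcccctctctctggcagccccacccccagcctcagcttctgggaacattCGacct

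The Nampt window held 27 CpG dinucleotides and the Qprt window 6, against a median of 6 over 32841 such windows. RefSeq windows were matched for 7 members, 9 windows in all; Naprt, Nadk2 and Nnmt were not among them. Nadsyn1 had 23 CpG dinucleotides, Nmrk1 21, the windows of Nmnat1 23 and 24, those of Nadk 4 and 18, and Nmnat3 9. The letters AGGTCA, 1 element of the site that PPARα binds with its partner RXR, were searched on both strands of the full 300 bases, from 250 before to 50 after the start. They occurred in 2 of the 9 windows, 1 of Nampt and 1 of Nmnat3, and in 16.3% of all windows. A pair of such elements in the same direction, spaced by 1 base, occurred in 0 of the 9 and in 0.0396% of all windows. A match is a description of letters, and a window without one says nothing about binding.

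Nadk was the most abundant member, with a mean of 66.6 ± 14.3 FPKM over the 10 libraries (SD), 53.3% of the summed FPKM of the 10 members. Nampt followed with 29.9 ± 8.0 FPKM and 23.9% of the sum. Nadk2 averaged 11.3 ± 4.23 FPKM and Nadsyn1 8.8 ± 1.96 FPKM, and Nadk2 was the higher of these in 7 of 10 libraries, so their order does not hold beyond the spread. Nmnat1 averaged 3.35 ± 0.451 FPKM and Naprt 2.48 ± 0.772 FPKM, with Nmnat1 above in 8 of 10 libraries. Nmrk1 at 1.46 ± 0.462 FPKM and Nmnat3 at 1.18 ± 0.286 FPKM changed places between libraries, Nmrk1 being higher in 6 of 10. Each of the remaining steps down, Nadk to Nampt, Nampt to Nadk2, Nadsyn1 to Nmnat1, Naprt to Nmrk1 and Nmnat3 to Nnmt, held in 10 of 10 libraries.

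**Figure D1:**
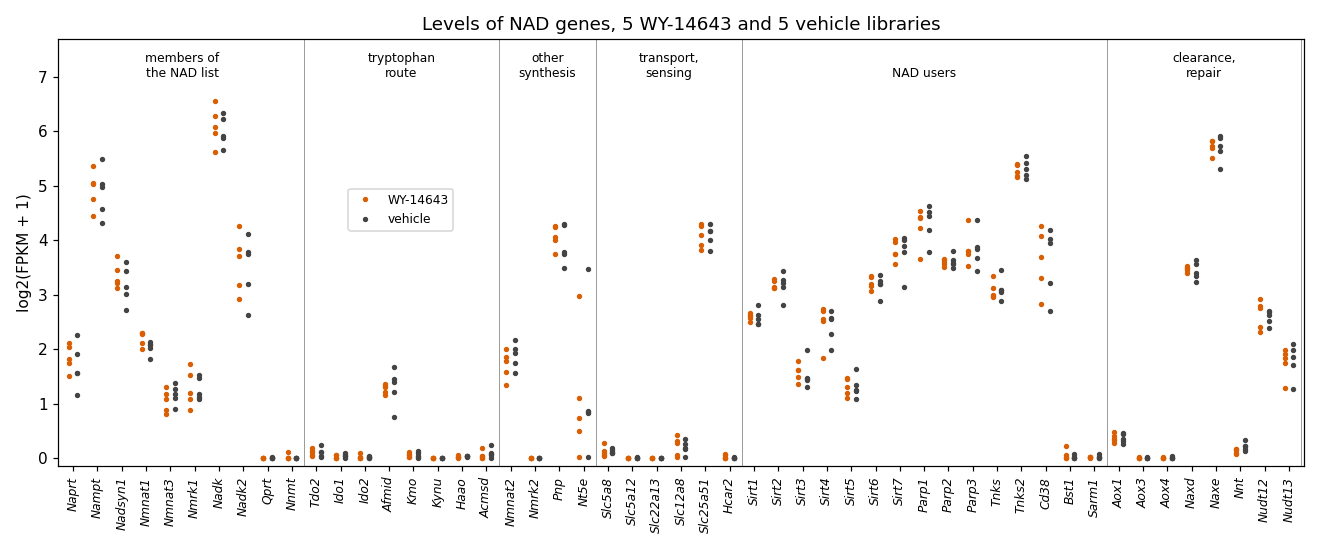
Levels of the 10 members and of 41 other NAD genes as log2(FPKM + 1), 1 point per library, WY-14643 left and vehicle right of each gene's position. Nadk and Nampt stand highest among the members, Qprt and Nnmt lie at the bottom with most of the tryptophan route, and the points of both groups overlap for every gene. Overlap does not show equal levels, and its share over all genes was not computed.

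Naprt, the enzyme that acts on nicotinic acid itself, was a low but steadily detected gene on chromosome 15 (75762805 to 75766330, minus strand, mm39, ENSMUSG00000022574). It measured 1.85, 3.3, 2.35, 3.12 and 2.51 FPKM in WY-14643 replicates 6 to 10 and 1.22, 3.76, 1.94, 2.76 and 1.95 FPKM in vehicle replicates 1 to 5. The groups overlapped: the highest value of all was vehicle replicate 2 and the lowest vehicle replicate 1, and 4 of 5 WY-14643 libraries lay above their vehicle partners. The means were 2.63 ± 0.588 FPKM in WY-14643 and 2.33 ± 0.969 FPKM in vehicle libraries (SD, n = 5 each). The log2 fold change, here and below on log2(FPKM + 1), which understates changes of low genes, was 0.16 with a 95% interval of -0.29 to 0.60 (limma, adjusted p = 1), and -0.04 to 0.35 with pairs as a block (limma, adjusted p = 0.552). Between 49 and 256 reads per library stood behind these values. The first 277 bases of the Naprt span, which lies on the minus strand, overlap the end of Eef1d on the same strand, a gene at 20.3 FPKM, so reads in that stretch cannot be told apart by strand.

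Nadsyn1, the last enzyme of the same route (chromosome 7, 143349321 to 143376586, minus strand), measured 8.29, 12.1, 9.9, 8.56 and 7.69 FPKM in WY-14643 replicates 6 to 10 and 5.6, 11.1, 9.82, 7.04 and 7.83 FPKM in vehicle replicates 1 to 5. The groups overlapped, with the largest gap in the pair of replicates 6 and 1 and next to none in the pairs 8 and 3 and 10 and 5. The log2 fold change was 0.17, with an interval of -0.21 to 0.55 without pairs (limma, adjusted p = 1) and -0.02 to 0.36 with pairs (adjusted p = 0.508).

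Nampt, the rate-limiting enzyme of nicotinamide salvage (chromosome 12, 32869544 to 32903348, plus strand), measured 26.2, 40.03, 31.6, 32.1 and 20.8 FPKM in WY-14643 replicates 6 to 10 and 22.8, 43.9, 31.7, 30.6 and 19.0 FPKM in vehicle replicates 1 to 5. Both groups ran over nearly the same range, and the highest and lowest libraries of each were partners. The means were 30.2 ± 7.18 FPKM in WY-14643 and 29.6 ± 9.61 FPKM in vehicle libraries. The log2 fold change was 0.05, with an interval of -0.45 to 0.56 without pairs (limma, adjusted p = 1) and -0.08 to 0.18 with pairs (adjusted p = 0.802). Per gene length, Nampt exceeded Naprt by 14.2, 12.1, 13.4, 10.3 and 8.3 times in WY-14643 replicates 6 to 10 and by 18.6, 11.7, 16.3, 11.1 and 9.73 times in vehicle replicates 1 to 5. The ratio is an RNA ratio, and it was chosen after the values were seen.

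Nmrk1, the riboside kinase (chromosome 19, 18609314 to 18629792, plus strand), measured 0.837, 1.89, 1.3, 1.11 and 2.31 FPKM in WY-14643 replicates 6 to 10 and 1.12, 1.86, 1.25, 1.17 and 1.76 FPKM in vehicle replicates 1 to 5. Its log2 fold change was 0.01 (interval -0.37 to 0.40; limma, adjusted p = 1), with 3 of 5 pairs higher in WY-14643 and the widest range in the WY-14643 group. Its paralog Nmrk2, best known from muscle, had 0 reads in all 10 libraries, which allows up to 0.0557 to 0.103 FPKM per library at 3 reads.

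Of the enzymes that add the adenylyl group, Nmnat1, the nuclear form (chromosome 4, 149552029 to 149569659, minus strand), had the member values that came nearest to separating by treatment. It measured 3.92, 3.02, 3.34, 3.94 and 3.85 FPKM in WY-14643 replicates 6 to 10 and 3.25, 3.2, 2.53, 3.36 and 3.06 FPKM in vehicle replicates 1 to 5. In WY-14643, replicates 6, 9 and 10 lay above every vehicle library, replicates 7 and 8 lay within the vehicle range, and 4 of 5 pairs were higher in WY-14643. The means were 3.61 ± 0.414 FPKM in WY-14643 and 3.08 ± 0.327 FPKM in vehicle libraries (SD, n = 5 each), a log2 fold change of 0.18 ± 0.10 (SE; limma, adjusted p = 1). With pairs the interval was 0.02 to 0.34 and the unadjusted p 0.0338, but the adjusted p was 0.412 (limma). An exact two-sided permutation test of the library means gave p = 0.0794 without pairs, where 0.00794 is the smallest possible, and an exact sign-flip test over the 5 pairs gave p = 0.125, where 0.0625 is the smallest possible.

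Nmnat3, usually described as the mitochondrial form (chromosome 9, 98169488 to 98302491, plus strand), was the 1 tested member with a lower mean after WY-14643. It measured 0.843, 1.13, 1.27, 1.48 and 0.742 FPKM in WY-14643 replicates 6 to 10 and 1.26, 1.6, 1.15, 1.42 and 0.876 FPKM in vehicle replicates 1 to 5. The groups overlapped, 3 of 5 pairs were lower and 2 higher in WY-14643, and the log2 fold change was -0.11 (interval -0.41 to 0.18; limma, adjusted p = 1; -0.32 to 0.09 and adjusted p = 0.715 with pairs). Nmnat1 over Nmnat3 was 3.56 ± 1.26 in WY-14643 and 2.53 ± 0.577 in vehicle libraries (ratio of FPKM, SD, n = 5 each; lowest and highest 2.63 and 5.19 against 2.0 and 3.49), a ratio chosen after the values were seen and not tested.

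Nmnat2, known mainly from neurons, stood above Nmnat3 in every library. It measured 2.61, 1.53, 2.42, 3.02 and 1.98 FPKM in WY-14643 replicates 6 to 10 and 3.03, 2.35, 2.8, 3.49 and 1.94 FPKM in vehicle replicates 1 to 5. In 4 of 5 pairs WY-14643 was the lower, and the log2 fold change was -0.17 (interval -0.52 to 0.17; limma, adjusted p = 1, and 0.48 with pairs).

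Both NAD kinases were detected well. Nadk, the cytosolic kinase (chromosome 4, 155646835 to 155675458, plus strand), measured 93.4, 61.4, 66.4, 76.5 and 48.2 FPKM in WY-14643 replicates 6 to 10 and 79.7, 57.6, 59.4, 74.4 and 49.2 FPKM in vehicle replicates 1 to 5. The order of the pairs was the same in both groups, with replicates 6 and 1 highest and 10 and 5 lowest. The log2 fold change was 0.10 (interval -0.31 to 0.51; limma, adjusted p = 1; -0.02 to 0.21 and adjusted p = 0.535 with pairs).

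Nadk2, the mitochondrial kinase (chromosome 15, 9071340 to 9110979, plus strand), measured 8.01, 13.4, 12.1, 6.58 and 18.2 FPKM in WY-14643 replicates 6 to 10 and 8.17, 12.5, 12.8, 5.19 and 16.3 FPKM in vehicle replicates 1 to 5. It was highest where Nadk was lowest, in replicates 10 and 5, and lowest in replicates 9 and 4. The log2 fold change was 0.09 (interval -0.61 to 0.78; limma, adjusted p = 1; -0.06 to 0.23 and adjusted p = 0.687 with pairs). The ratio of Nadk to Nadk2 ran from 2.66 to 11.7 among WY-14643 and from 3.02 to 14.3 among vehicle libraries, with means of 7.2 ± 4.18 and 7.27 ± 4.69 (SD, n = 5 each).

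Qprt, the entry of quinolinate (chromosome 7, 126706286 to 126721398, minus strand), had 0 reads in every WY-14643 library and 1 read in the vehicle group, in replicate 2 (0.013 FPKM). Nnmt (chromosome 9, 48503177 to 48516453, minus strand) had 2 reads in WY-14643 replicate 8 (0.0761 FPKM) and 0 in every other library. A floor of 3 reads, a chosen limit, corresponds to 0.0391 to 0.0719 FPKM for Qprt and 0.0655 to 0.121 FPKM for Nnmt, depending on the library. Both genes lay below it in every library. Neither gene was tested, and no fold is given. Floors cover counting error only, and PCR copies were not marked by molecular identifiers.

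**Figure D2:**
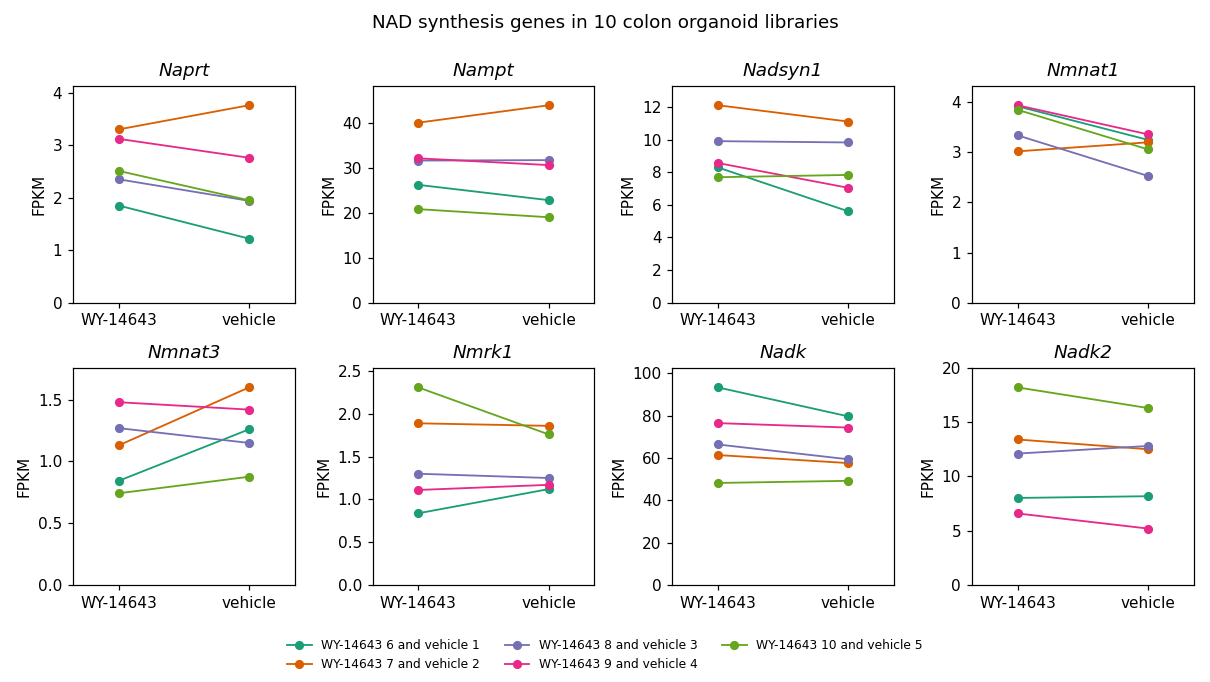
FPKM of the 8 tested members in each library, WY-14643 left and vehicle right, lines joining the numbered pairs. Lines of different colour lie far apart while their slopes are small and of mixed sign, as for Nampt at 19.0 to 43.9 FPKM; for Nmnat1 4 of 5 lines are higher at WY-14643.

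Over the 8 tested members 0 passed at an adjusted p of 0.05 without pairs (limma; 0% of the 13607 genes passed) and 0 with pairs (0.316% of the genes, 43, passed). Before adjustment, 0 of 8 had a p under 0.05 without pairs (1.51% of all genes) and 1 of 8 with pairs, Nmnat1 (10.6% of all genes). None of the 8 was higher in WY-14643 in 5 of 5 pairs (5.63% of all genes) and none was lower in 5 of 5 (6.09%), while 4 of the 8 were higher in exactly 4 of 5 (15.8% of all genes). The median log2 fold change was 0.09 over the 8 members and -0.01 over all genes tested. A p that misses the threshold does not show equal levels: over the 8 members the intervals of the log2 fold change spanned -0.32 to 0.36 with pairs and -0.61 to 0.78 without. In the same libraries Cpt1a, the carnitine palmitoyltransferase that PPARα is known to induce, measured 24.6, 29.5, 30.6, 26.0 and 22.1 FPKM in WY-14643 replicates 6 to 10 and 8.68, 15.1, 12.3, 10.3 and 11.4 FPKM in vehicle replicates 1 to 5, a log2 fold change of 1.15 (limma, adjusted p = 0.0917 without and 0.010 with pairs).

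**Figure D3:**
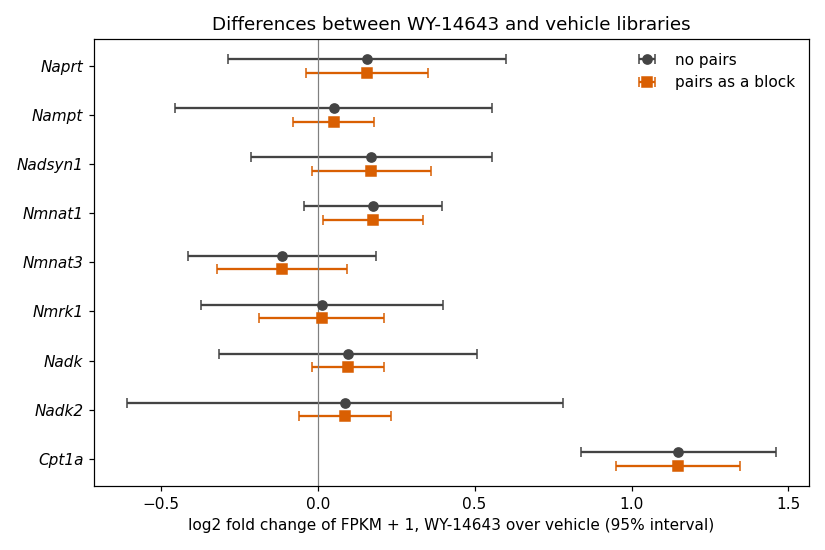
Log2 fold change of FPKM + 1, WY-14643 over vehicle, with 95% intervals, for the 8 tested members and for Cpt1a, without pairs (circles) and with pairs as a block (squares). The members lie between -0.11 and 0.18 and Cpt1a at 1.15; among the members the interval of Nmnat1 with pairs (0.02 to 0.34) leaves out 0 before adjustment.

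The members' sums of squares were larger between pairs than between treatments, although the pairs were themselves read from these libraries and have 4 degrees of freedom against 1 for treatment. Pairs took 97.6% of the sum of squares of Nadk2 over the 10 libraries, 97.1% of that of Nampt, 94.7% for Nadk, 90.9% for Nmrk1, 86.4% for Naprt, 79.2% for Nadsyn1 and 72.2% for Nmnat3, where the median over all genes tested was 83.6%. Nmnat1 differed from these, with 43.1% for pairs and 37.8% for treatment, where the median gene had 2.27% for treatment. Per degree of freedom, treatment took the larger share for Nmnat1. The mean of a pair varied 2.93-fold between the highest and lowest pair for Nadk2, 2.3-fold for Naprt, 2.11-fold for Nampt and 2.07-fold for Nmrk1. It varied 1.79-fold for Nmnat3, 1.78-fold for Nadk, 1.67-fold for Nadsyn1 and 1.25-fold for Nmnat1. The mean of WY-14643 over that of vehicle was 1.06, 1.13, 1.02, 1.04, 0.868, 1.08, 1.13 and 1.17 for the same genes in this order. The fold between pairs takes the extremes of 5 means, so it tends to be the larger by construction.

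**Figure D4:**
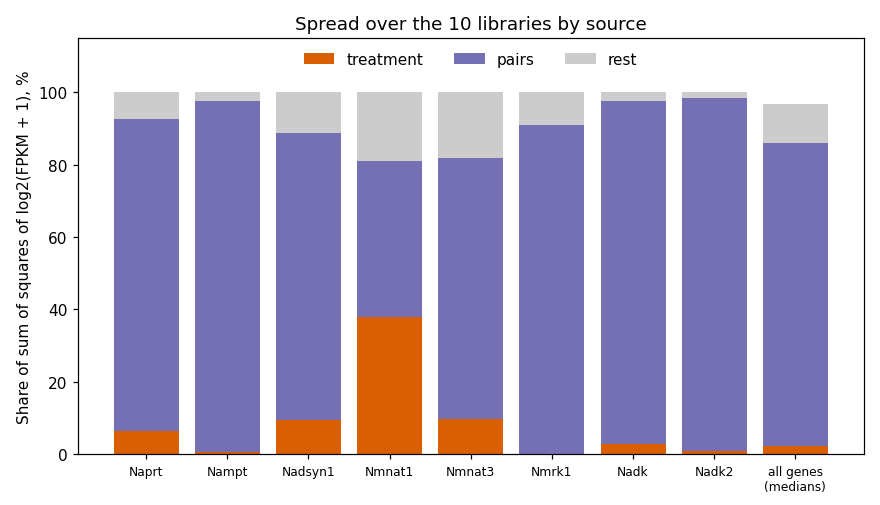
Share of the sum of squares of log2(FPKM + 1) over the 10 libraries that goes with treatment, with pairs and with the rest, in percent, for the 8 tested members and as medians over 13607 genes. The medians of the last bar are taken separately and need not sum to 100. Nmnat1 has the tallest treatment share among the members, 37.8%, and Nadk2 the tallest pair share, 97.6%.

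The pair of replicates 10 and 5 was highest in Nadk2 and Nmrk1 and lowest in Nampt, Nadk and Nmnat3. This was not particular to that pair, since every gene has a highest and a lowest pair. Replicates 6 and 1 were lowest in Naprt, Nadsyn1 and Nmrk1 and highest in Nadk. Replicates 7 and 2 were highest in Naprt, Nampt and Nadsyn1. Krt20, a keratin of mature surface colonocytes, was lowest in replicates 10 and 5, at 6.92 FPKM in WY-14643 and 6.12 FPKM in vehicle. The other libraries had 54.9 to 169 FPKM of Krt20 in WY-14643 and 61.1 to 129 FPKM in vehicle. Car1, another colonocyte gene, was at 43.1 FPKM in WY-14643 replicate 10 and 21.0 FPKM in vehicle replicate 5. The other libraries had 324 to 1626 FPKM of Car1 in WY-14643 and 89.97 to 887 FPKM in vehicle. The part of the cell mix in the members' spread was not tested, and in bulk RNA fewer cells of a type and less RNA per cell cannot be told apart.

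The genes most like Naprt across the 10 libraries, by the mean absolute difference of their log2 deviations, were Dgkq (0.05), Slc40a1 (0.08) and Dcaf15 (0.08), among 10374 protein-coding genes of at least 1 FPKM whose median difference was 0.31. Those most like Nampt were Rnf128 (0.04), Fkbp5 (0.09) and Atp11b (0.09), with a median of 0.34 over the genes.

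Around the 10 members, 41 other NAD genes were listed, of which 22 reached the filter. None of the 22 passed without pairs or with pairs (limma), where 0% and 0.316% of all genes tested passed. Before adjustment 0 had a p under 0.05 in either fit, against 1.51% of all genes without pairs and 10.6% with pairs. Their median log2 fold change was 0.01. Of the 8 genes of the tryptophan route, 1 reached the filter, Afmid, the formamidase, at 1.42 ± 0.138 FPKM in WY-14643 and 1.51 ± 0.553 FPKM in vehicle libraries. The first enzymes were close to 0, Tdo2 at 0.0765 ± 0.0423 FPKM in WY-14643 and 0.0743 ± 0.0649 FPKM in vehicle, and Ido1 at 0.0134 ± 0.0184 FPKM in WY-14643 and 0.033 ± 0.025 FPKM in vehicle libraries. Acmsd was at 0.037 ± 0.0555 FPKM in WY-14643 and 0.0677 ± 0.0704 FPKM in vehicle libraries, from 0 to 9 reads per library, and was not tested.

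Of the other genes of synthesis and cleavage, Pnp, the purine nucleoside phosphorylase that can release nicotinamide from its riboside, averaged 15.8 ± 2.36 FPKM in WY-14643 and 14.6 ± 3.86 FPKM in vehicle libraries. Nt5e, the surface nucleotidase CD73, measured 1.16, 0.416, 0.662, 6.9 and 0.0151 FPKM in WY-14643 replicates 6 to 10 and 0.774, 0.829, 0.799, 10.03 and 0.0163 FPKM in vehicle replicates 1 to 5. It was highest in replicates 9 and 4 and lowest in replicates 10 and 5, with the other pairs between them.

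Among carriers and the receptor, 1 of 6 genes reached the filter. Slc25a51, which imports NAD into mitochondria, averaged 16.1 ± 2.42 FPKM in WY-14643 and 16.1 ± 2.18 FPKM in vehicle libraries, with a log2 fold change of -0.01 and an interval with pairs of -0.11 to 0.10 (limma, adjusted p = 0.979). Slc5a8, a sodium-coupled carrier that takes up nicotinate and short-chain fatty acids, was at 0.0875 ± 0.0735 FPKM in WY-14643 and 0.0924 ± 0.0327 FPKM in vehicle libraries. Hcar2, the receptor for nicotinic acid and butyrate, had 4 reads in all 10 libraries together and 0 in 7 of them.

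The 15 genes of enzymes that use NAD were mostly expressed, 13 of them above the filter, with 9 log2 fold changes above 0 and 4 below and a median of 0.01, where 6409 of all genes tested lay above 0 and 7198 below. Several of these lay next to 0, and the sign did not always match that of the difference in mean FPKM. Tnks2, a tankyrase, averaged 37.9 ± 3.07 FPKM in WY-14643 and 39.1 ± 4.68 FPKM in vehicle, Parp1 18.4 ± 4.15 and 19.3 ± 4.38 FPKM, Parp2 11.1 ± 0.504 and 11.3 ± 1.01 FPKM, and Sirt6 8.3 ± 0.761 and 8.08 ± 1.07 FPKM, in the same order of groups. Cd38, the NAD glycohydrolase of the cell surface, averaged 12.2 ± 4.98 FPKM in WY-14643 and 12.1 ± 5.0 FPKM in vehicle libraries, from 5.49 to 18.3 FPKM, again lowest in replicates 10 and 5. Of the 8 genes of clearance and repair 4 reached the filter: Naxe, an epimerase that repairs damaged NADH, at 51.7 ± 4.44 FPKM in WY-14643 and 51.4 ± 8.28 FPKM in vehicle libraries, its partner dehydratase Naxd, and the hydrolase genes Nudt12 and Nudt13. Their adjusted p with pairs lay at 0.867 or above (limma).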

How the data were processed

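Messenger RNA of 10 mouse colon organoid libraries was analysed from 1 gene table. The deposited values are FPKM, which the authors scaled by gene length and library. The submitters' processing notes name the aligner HISAT2 (2.0.5), the counter featureCounts (1.5.0-p3) and the build mm39; strand setting, annotation release and scaling factor are not given in the sources at hand. Whole reads could be recovered from FPKM times gene length for 100% of values (tolerance 0.01) and served for depth, floors and a voom alternative. Groups were compared with limma 3.58.1 (R 4.3.3) on log2(FPKM + 1), using an intensity trend and robust priors, for genes with a mean of at least 0.5 FPKM and with Benjamini-Hochberg adjustment over 13607 genes. A second fit had the numbered pairs as a block; the pairing rests on numerical order and on correlated deviations, not on a label. Exact permutation tests and figures (matplotlib 3.10.9) were made in Python 3.11.15. Promoter windows came from RefSeq (GRCm38.p6). The fits were also tried on simulated reads with 1 fixed spread and known changes larger than the members' differences. That trial does not show how the fits do on differences of the members' size.

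The members, lists and alternatives were chosen with earlier results of these data known. All 10 members are named. From each other list up to 4 genes with the smallest p are named, beside Ido1, Tdo2, Nmnat2, Nmrk2, Acmsd, Hcar2, Slc5a8 and Cd38, and for Naprt and Nampt the 3 genes most alike. Krt20, Car1 and Cpt1a come from marker and comparison lists and were picked after their values were seen. Alternatives were other pseudocounts, filters and scalings, voom, library weights and leaving out libraries or pairs. A further immune marker of the list is not reported here.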

Additional observations from a re-analysis of the deposited data

Results flagged for a closer look

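For the 10 members and 19 other named genes, 56 groups of 5 libraries with any spread were screened for 1 library far from the other 4, measured as the gap to its nearest neighbour over the group's whole range, on log2(FPKM + 1). A gap above 0.71 was counted, and 5 groups had one. Chance gives such a gap in about 1 of 20 groups of independent, normally distributed values. That rate does not hold for genes next to 0: a group with 1 library above 0 scores 1.0 by construction. Nnmt in WY-14643 libraries (1.0) and Qprt in vehicle libraries (1.0) each rest on 1 library with 2 and 1 reads while the other 4 are at 0. Hcar2 in vehicle libraries (1.0) likewise has 1 library above 0. Acmsd in WY-14643 libraries (0.76) was highest in replicate 6, at 0.133 FPKM. Nt5e in vehicle libraries (0.754) was highest in replicate 4, at 10.03 FPKM, and its partner, WY-14643 replicate 9, was highest in its own group at 6.9 FPKM.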

How the results depend on the processing

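No member passed at an adjusted p of 0.05 in any fit that was run: without pairs, with the replicate block, with a pseudocount of 0.1, with no filter or a filter of 1 FPKM, with either other scaling, with voom, with library weights, or without any 1 library or pair. Over all genes 0 passed without pairs, 43 with the replicate block and 21 with library weights, and 0 to 2 without any 1 library. With the block the count was 2 to 33 without any 1 pair, 212 with voom and 2 with no filter; the last 2 settings were added after seeing the data, and the cause of these moves was not tested. The log2 fold changes of Naprt, Nadsyn1, Nmnat1 and Nmnat3 kept their direction throughout but not their size. Without any 1 library Naprt ran from 0.023 (without vehicle replicate 1) to 0.30 (without vehicle replicate 2), Nadsyn1 from 0.057 to 0.27 (without the same libraries), Nmnat1 from 0.13 (without vehicle replicate 3) to 0.23 (without WY-14643 replicate 7), and Nmnat3 from -0.18 (without vehicle replicate 5) to -0.05 (without WY-14643 replicate 10). With library weights Nadsyn1 was 0.08 and Nmnat3 -0.015, and Nmnat3 was -0.24 with voom and -0.20 with a pseudocount of 0.1. The log2 fold change of Nmrk1 turned to -0.0051 with voom and that of Nadk2 to -0.024 with library weights, none of them called. Without any 1 library Nampt ran from -0.089 (without vehicle replicate 5) to 0.20, also below 0 without vehicle replicate 1 or WY-14643 replicate 7. Nmrk1 ran from -0.098 (without WY-14643 replicate 10) to 0.11, also below 0 without WY-14643 replicate 7 or vehicle replicate 1, 3 or 4. Nadk ran from -0.018 (without WY-14643 replicate 6) to 0.22, and Nadk2 from -0.13 (without vehicle replicate 4) to 0.25, also below 0 without WY-14643 replicate 10. With the block and without any 1 pair Nmrk1 ran from -0.050 (without replicates 10 and 5) to 0.068. The replicate block changed no call of a member. The planned negative-binomial count tests on recovered reads were not run, since the deposited values are FPKM. Depth limits Qprt and Nnmt, which lie under the floor of 3 reads, and Naprt, Nmrk1 and Nmnat3, with as few as 49, 49 and 67 reads in a library.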

Other observations

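Nnt, the mitochondrial transhydrogenase that links NADH to NADPH, was named after its values were seen. The table holds 2 rows of this symbol, 1 at 0 in all libraries. The other measured 0.0927 ± 0.0366 FPKM in WY-14643 and 0.159 ± 0.0614 FPKM in vehicle libraries (SD, n = 5 each), from 7 to 52 reads per library. The groups overlapped. This row was lower in WY-14643 in 5 of 5 pairs, as were 6.09% of all genes tested. That share covers genes above the filter, which this row did not reach. An exact two-sided permutation test gave p = 0.0794 without pairs. An exact sign-flip test over the pairs gave p = 0.0625, the smallest possible, as any row with 5 differences of 1 sign must. It therefore only restates the 5 of 5 pairs. Since the row was picked after its values were seen, neither test counts as support for a difference. The row lay below the filter of 0.5 FPKM, so it was not tested across genes. The labels give no strain.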
